A study of Heterocephalus glaber and Mus musculus with 9 samples.

Results

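The genes described here are the DNA repair genes of the spleen table: every gene whose symbol starts with Xrcc, Ercc, Fanc, Brca, Msh, Mlh, Neil, Parp, or Rad followed by a digit, and a short list of sensors, effectors and excision enzymes chosen by name. The rule took 75 of the 12946 genes in the table, 73 of them by symbol and 2 under another symbol of the same gene, such as Mre11 where the rule has Mre11a. Ung, Mutyh and Mdm2 are not listed under these symbols in the table and were not analysed here. RNA was measured in 9 spleens, 1 library per animal. The mice were 3 wild-type C57Bl/6N males, 2 months old and kept at about 22 °C. The naked mole-rats (NM-Rs, Heterocephalus glaber) were kept at 29 °C and were healthy, and they formed 2 cohorts by spleen size. Small spleens (ssNM-R) came from 3 males aged 30, 26 and 23 months, numbered 2, 3 and 6, and enlarged spleens (lsNM-R) from a male of 24 months, a female of 29 months and a male of 23 months, numbered 1, 4 and 5. Species therefore cannot be told apart from age, housing temperature or the genome to which each species' reads were aligned.

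A cell meets damage to its DNA with several repair systems that divide the work by lesion. Base excision repair removes small damaged bases, nucleotide excision repair cuts out bulky lesions such as those left by ultraviolet light, and mismatch repair corrects copying errors. Breaks through both strands are joined end to end by non-homologous end joining or copied from the sister chromatid by homologous recombination, the Fanconi anaemia proteins unhook crosslinks between the strands at stalled forks, and the kinases ATM and ATR signal damage to the checkpoints. These systems also serve dividing blood progenitors and lymphocytes, which cut and rejoin their own receptor genes.

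Expression is given as normalized counts, in which the reads of a gene were scaled by the library's size factor and not by gene length. A fold change between the species thus also holds any difference in the length of the 2 annotated genes. Levels are compared between genes only per kilobase in mice and as ratios of counts within a spleen. These ratios are not scaled by length, so a species difference in a ratio also holds any such difference for both of its genes. Libraries held between 7815326 and 18387599 recovered reads, and none of the members except Msh4 lay at or under 3 reads in a whole group. Differences are log2 fold changes on the log2(normalized count + 1) scale with their standard error (SE), from a limma fit over all 12946 genes, and "higher", "lower" and "rose" or "fell" are used for an adjusted p under 0.05. NM-R values cover both cohorts (n = 6) against mouse (n = 3) unless a cohort is named.

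Across both cohorts, 37 of the 75 repair genes had more RNA in NM-R spleens, 21 had less and 17 passed in neither direction. Of all 12946 genes, 39.7% were higher and 38.8% were lower, or 78.5% in either direction, so that most genes of the table differed between the species and the 49.3% and 28% of the repair genes are to be read against those shares. The median log2 fold change was 0.23 over the repair genes, with Msh4 as fitted or at its lower bound, and 0.01 over all genes. In 35 repair genes every NM-R spleen lay above every mouse spleen and in 19 every NM-R spleen lay below, which compares with 36.4% and 36.2% of all genes. Each cohort was also compared with the same 3 mice, which these comparisons share. In the ssNM-Rs 33 repair genes were higher and 20 lower, against 38.0% and 37.5% of all genes, and in the lsNM-Rs 38 were higher and 20 lower, against 38.1% and 37.0%. The pathways were not alike. Homologous recombination (9 of 13 higher, none lower), mismatch repair (5 of 6 higher, none lower) and the Fanconi anaemia pathway (5 of 9 higher, 1 lower) were on the higher side, while base excision repair (2 of 9 higher, 5 lower) and the remaining PARP family (2 of 9 higher, 7 lower) were on the lower side. Damage signalling (5 higher and 4 lower of 10) and nucleotide excision repair (5 higher and 3 lower of 10) were divided, and non-homologous end joining (2 higher of 5, none lower) had 3 members that were not called.

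**Figure D1:**
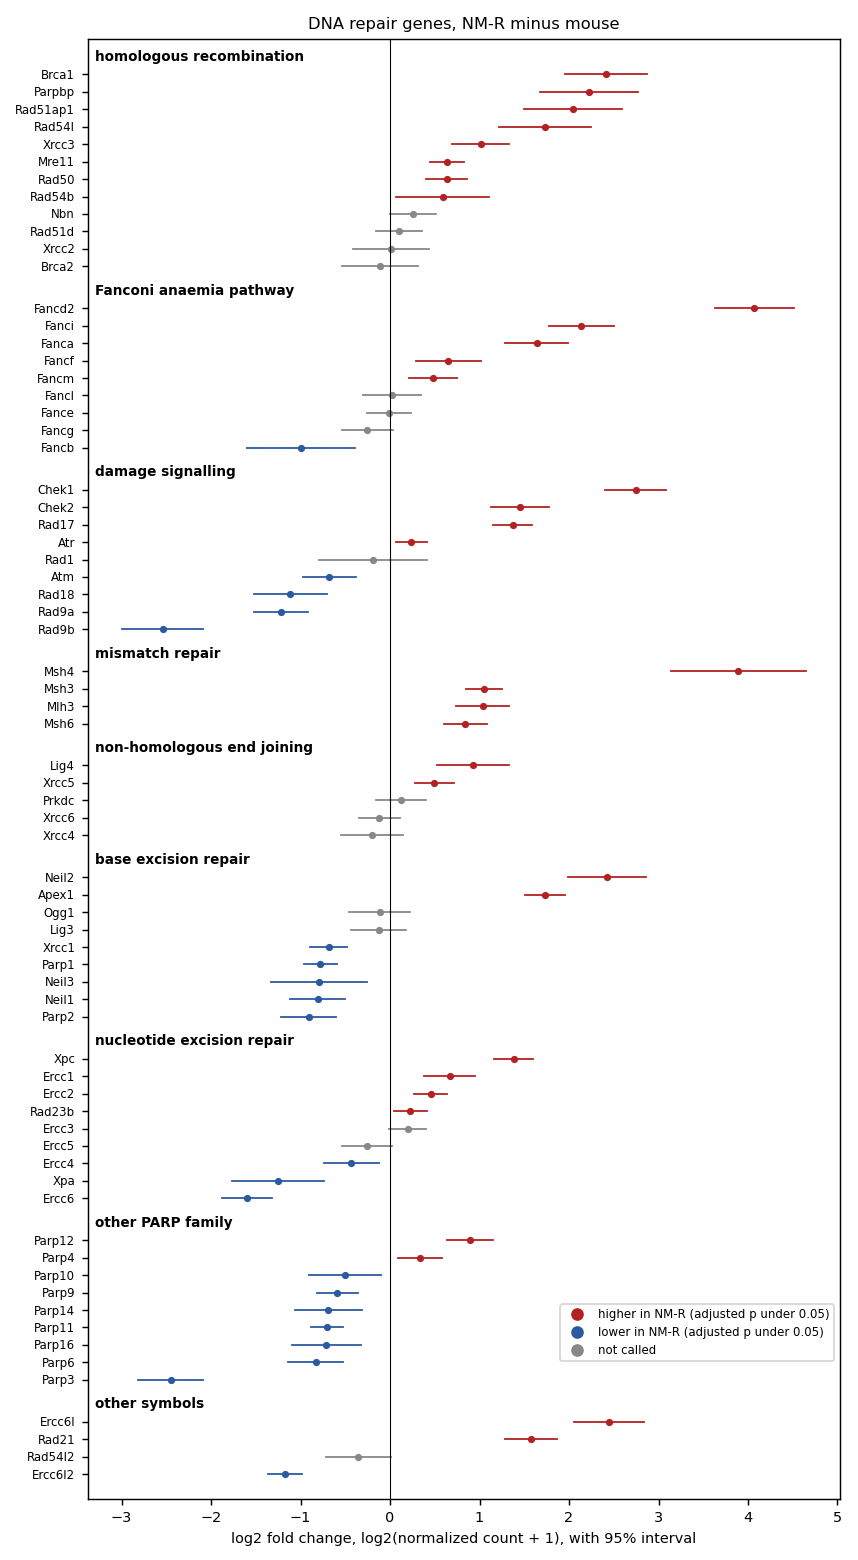
Log2 fold change of 70 of the 75 DNA repair genes, NM-R (n = 6) minus mouse (n = 3), grouped by pathway and sorted within it. Points are the limma estimates and lines their 95% intervals. Fancd2 stands farthest to the right at 4.07 and Rad9b farthest to the left at -2.54, and the homologous recombination and mismatch repair genes hold no called gene left of 0.

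The promoters of 4 mouse genes are shown for orientation, from mm9, the build to which the mouse reads were aligned, and on the coding strand up to the base before the annotated gene start. Fanci and Rad51ap1 stand for the crosslink and recombination genes that rose together, and Chek2 and Prkdc for the 4 genes whose window holds 1 of the 2 motifs searched. Capitals mark a match to TTTCCCGC or TTTGGCGC, forms of the element bound by E2F factors, searched on both strands over 250 bases.
Fanci, chr7:86536615-86536814, plus strand: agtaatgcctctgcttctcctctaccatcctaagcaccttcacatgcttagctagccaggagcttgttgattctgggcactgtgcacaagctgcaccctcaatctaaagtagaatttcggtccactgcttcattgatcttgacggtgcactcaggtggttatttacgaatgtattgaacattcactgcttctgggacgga
Rad51ap1, chr6:126889606-126889805, minus strand: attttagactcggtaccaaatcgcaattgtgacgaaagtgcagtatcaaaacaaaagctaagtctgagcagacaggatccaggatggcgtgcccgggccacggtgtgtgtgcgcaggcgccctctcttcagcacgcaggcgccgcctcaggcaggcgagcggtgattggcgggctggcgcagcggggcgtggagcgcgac
Chek2, chr5:111268836-111269035, plus strand: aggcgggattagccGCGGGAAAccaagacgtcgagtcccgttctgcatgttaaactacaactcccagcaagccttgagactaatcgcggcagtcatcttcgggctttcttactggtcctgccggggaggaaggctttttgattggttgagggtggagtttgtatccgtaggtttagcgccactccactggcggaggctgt
Prkdc, chr16:15637709-15637958, plus strand: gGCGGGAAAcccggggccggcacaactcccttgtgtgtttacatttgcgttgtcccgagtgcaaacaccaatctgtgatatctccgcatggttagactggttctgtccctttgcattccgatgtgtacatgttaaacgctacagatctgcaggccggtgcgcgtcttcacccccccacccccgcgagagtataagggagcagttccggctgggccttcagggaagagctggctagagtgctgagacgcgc
A match was present in 4 of the 70 repair gene promoters that could be placed on mm9 (5.71%), those of Chek2, Brca2, Msh3 and Prkdc, against 350 of 22375 promoters of protein-coding genes (1.56%). Chek2 and Msh3 were higher in NM-R and Brca2 and Prkdc were not called. Matches lay in 2 of 35 windows of higher genes, 2 of 16 of genes not called and 0 of 19 of lower genes. These counts are too small to compare the directions. Neither Fanci nor Rad51ap1 had a match in its window. A match in a mouse window is a description of sequence only, and NM-R promoters were not analysed here.

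Fanconi anaemia genes held the largest difference of all repair genes. Fancd2, which with its partner is loaded onto DNA at crosslinks once it carries a ubiquitin, stood at 203, 308 and 419 in the mice, 4526, 4478 and 4729 in the ssNM-Rs and 6326, 4527 and 5727 in the lsNM-Rs (normalized counts, as in all values that follow). Every NM-R spleen was at least 10 times the highest mouse, and the means of 5052 ± 783 in the NM-Rs against 309.9 ± 108 in the mice (SD) gave a log2 fold change of 4.07 ± 0.20 (SE, adjusted p = 5.28e-08). Fanci, the partner of Fancd2 in the clamp, measured 191, 232 and 333 in the mice, 1008, 1111 and 919 in the ssNM-Rs and 1029.6, 1293 and 1172 in the lsNM-Rs, again without overlap between the species, with a log2 fold change of 2.14 ± 0.16. The ratio of Fancd2 to Fanci counts did not overlap between the species, with 1.06 to 1.33 in the mice and 3.50 to 6.14 in the NM-Rs. Fanca, a subunit of the core complex that places the ubiquitin, rose as well (465 to 552 in the mice and 1223 to 2091 in the NM-Rs, log2 fold change 1.64). Smaller increases were those of Fancf, an adaptor of the core complex (0.65, adjusted p = 0.0043), and of Fancm, the translocase that brings it to stalled forks (0.48, adjusted p = 0.00417).

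Not every subunit of the core complex moved this way. Fancl, the ubiquitin ligase itself, was close between the species (197 to 271 in the mice and 198 to 273 in the NM-Rs), with a log2 fold change of 0.02 and a 95% interval of -0.31 to 0.35. Fance and Fancg likewise had intervals across 0 (-0.25 to 0.23 and -0.54 to 0.03). Fancb, an X-linked core subunit, was the only lower member of the pathway, at 91.3, 91.3 and 106 in the mice, 64.3, 54.0 and 29.7 in the ssNM-Rs and 41.0, 67.0 and 40.8 in the lsNM-Rs. Its log2 fold change was -0.997 ± 0.27 (adjusted p = 0.00669), and every NM-R spleen lay below every mouse.

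**Figure D2:**
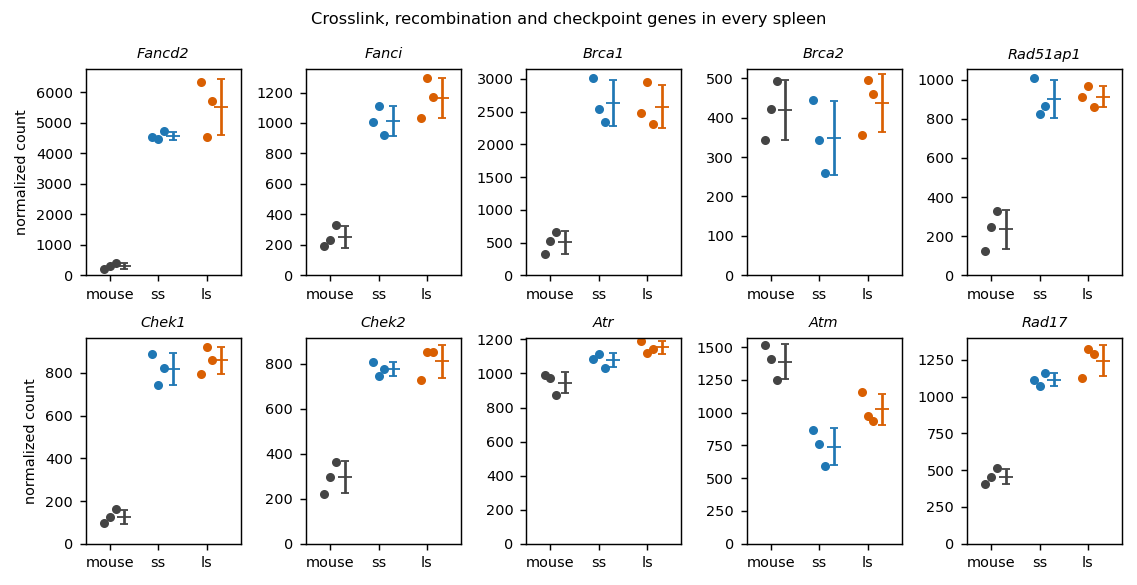
Normalized counts of 10 genes of crosslink repair, recombination and damage signalling in each spleen (points), with group mean ± SD (bar, n = 3 per group). Fancd2, Fanci, Brca1, Rad51ap1, Chek1, Chek2, Rad17 and Atr have all 6 NM-R spleens above all 3 mice, Atm has them below, and Brca2 overlaps.

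The 13 homologous recombination genes taken by the rule were higher or not called. Brca1, which promotes the trimming of break ends, read 320.1, 530.5 and 668 in the mice, 3009.8, 2543 and 2339 in the ssNM-Rs and 2475, 2946 and 2305 in the lsNM-Rs. The NM-R values exceeded those of all mice and the log2 fold change was 2.42 ± 0.20 (adjusted p = 2.12e-06). Brca2, which prepares single-stranded DNA for strand exchange, did not follow it: its values were 343, 421 and 494 in the mice, 446, 342 and 258 in the ssNM-Rs and 356, 495 and 461 in the lsNM-Rs and overlapped throughout. Its log2 fold change was -0.11 with a 95% interval of -0.53 to 0.31 (adjusted p = 0.604). Across spleens the ratio of Brca1 to Brca2 counts was 0.933 to 1.35 in the mice and 5.001 to 9.05 in the NM-Rs.

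Several genes for proteins that act at strand exchange rose alongside. Rad51ap1, which stimulates strand pairing, ranged from 126 to 328 in the mice and 826 to 1009 in the NM-Rs (log2 fold change 2.05), and Rad54l, the translocase that remodels the joint, from 233 to 449.9 in the mice and 921 to 1521 in the NM-Rs (1.73). Parpbp, which restrains recombination, was higher too (97.3 to 199 in the mice and 509 to 929 in the NM-Rs, log2 fold change 2.22). Of the paralogues that assist strand exchange, Xrcc3 was higher (1.01, adjusted p = 1.02e-04), while Rad51d (0.10, interval -0.15 to 0.36) and Xrcc2 (0.01, interval -0.42 to 0.44) were not called. Rad54b was called at an adjusted p of 0.0406 although its spleens overlapped between the species.

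The complex that first holds broken ends showed smaller differences. Mre11, its nuclease, stood at 580.0, 618 and 612 in the mice, 905, 796 and 819 in the ssNM-Rs and 955, 1123 and 1092 in the lsNM-Rs, with a log2 fold change of 0.64 ± 0.086 (adjusted p = 6.45e-05). Rad50, the tether, rose by the same amount to 2 decimals (0.64). Nbn, which links the complex to ATM, gave 352 to 381 in the mice and 357 to 504 in the NM-Rs and did not pass (0.26, adjusted p = 0.0679).

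Non-homologous end joining had the lowest share of called members. Among the 8 genes of this pathway that the rule does not take, 4 were higher and 2 lower. Dclre1c had the largest increase of these (log2 fold change 2.72, adjusted p = 3.06e-08). Over both lists 6 of 13 were higher and 2 lower. Ercc6l2, which also acts in end joining, was not counted here and is given below. The Ku heterodimer that caps broken ends is made of the products of Xrcc6 and Xrcc5. Xrcc5 was higher, with 371, 392 and 409 in the mice, 540.1, 519 and 539.7 in the ssNM-Rs and 490.1, 626 and 601 in the lsNM-Rs and a log2 fold change of 0.49 ± 0.099 (adjusted p = 0.00104). Its partner Xrcc6 measured 488, 564 and 651 in the mice, 499, 504 and 465 in the ssNM-Rs and 564, 555 and 534 in the lsNM-Rs, which overlapped between the species (-0.12, 95% interval -0.35 to 0.11). The ratio of Xrcc5 to Xrcc6 counts was 0.628 to 0.761 in the mice and 0.87 to 1.16 in the NM-Rs. Prkdc, the kinase that Ku recruits, was 1122, 1200.0 and 1031 in the mice, 1354, 1179 and 889.8 in the ssNM-Rs and 1291, 1386 and 1257 in the lsNM-Rs, and the interval of its log2 fold change was -0.16 to 0.40 (adjusted p = 0.392). At the ligation step Lig4 rose, from 142, 137 and 144 in the mice to 328, 269 and 223 in the ssNM-Rs and 256, 358 and 213 in the lsNM-Rs (log2 fold change 0.93 ± 0.18, adjusted p = 8.13e-04), and its scaffold Xrcc4 was not called (-0.20, adjusted p = 0.247).

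Damage signalling held genes on both sides, and its kinases Atm and Atr differed in opposite directions. Atm, the kinase activated by double-strand breaks, was lower in NM-R, with 1515, 1407 and 1247 in the mice, 868, 761 and 590.2 in the ssNM-Rs and 1161, 977 and 939 in the lsNM-Rs. The log2 fold change was -0.68 ± 0.13 (adjusted p = 8.50e-04), with -0.92 in the ssNM-Rs and -0.44 in the lsNM-Rs. Chek2, the checkpoint kinase that ATM phosphorylates, was higher, at 222, 299 and 365 in the mice, 807, 748 and 777 in the ssNM-Rs and 727, 854 and 850.3 in the lsNM-Rs (log2 fold change 1.45 ± 0.14, adjusted p = 6.97e-06). The ratio of Chek2 to Atm counts was 0.146 to 0.293 in the mice and 0.627 to 1.32 in the NM-Rs. Atr, the kinase of stalled forks and single-stranded DNA, was slightly higher at 989, 971 and 874 in the mice, 1087, 1112 and 1031 in the ssNM-Rs and 1193, 1121 and 1143 in the lsNM-Rs. Although the species did not overlap for Atr, the difference was small (log2 fold change 0.24 ± 0.076, adjusted p = 0.0146), passed in the lsNM-Rs (adjusted p = 0.0127) and not in the ssNM-Rs (adjusted p = 0.071), and was lost without mouse 3 (adjusted p = 0.0655). Chek1, the kinase downstream of ATR that holds back entry into mitosis, had the second largest difference among the genes with reads in every spleen. It read 95.3, 124 and 160.4 in the mice, 889, 743 and 822 in the ssNM-Rs and 794, 922 and 860.3 in the lsNM-Rs, a log2 fold change of 2.75 ± 0.15 (adjusted p = 1.19e-07), and the ratio of Chek1 to Atr counts was 0.0963 to 0.184 in the mice and 0.665 to 0.822 in the NM-Rs.

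The subunits of the sliding clamp of the checkpoint were not alike. Rad9a, a subunit of the clamp that brings ATR its activator, was lower (754 to 875 in the mice and 296 to 431 in the NM-Rs, log2 fold change -1.22), and Rad9b, its testis-enriched paralogue, had the largest decrease of all repair genes. Rad9b counts were 114, 105 and 102 in the mice, 19.1, 15.0 and 15.8 in the ssNM-Rs and 19.8, 14.8 and 21.9 in the lsNM-Rs, with a log2 fold change of -2.54 ± 0.20 (adjusted p = 1.44e-06). Rad17, which loads the clamp, was higher (407 to 513 in the mice and 1073 to 1326 in the NM-Rs, log2 fold change 1.37). Rad1, the remaining clamp subunit among the members, was not called (-0.19, interval -0.79 to 0.41), with the widest interval of the group. Hus1, a clamp subunit that the rule does not take, was higher (356 to 414 in the mice and 451 to 556 in the NM-Rs, log2 fold change 0.39, adjusted p = 0.0034). Rad18, the ligase that marks PCNA for bypass synthesis, fell by 1.11 on the log2 scale (301 to 383 in the mice and 133 to 234 in the NM-Rs).

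The 9 base excision repair genes taken by the rule had a median log2 fold change of -0.69, and 2 genes stood far above it. Among the 12 genes of this pathway that the rule does not take, 8 were higher and 4 lower, so that over both lists 10 were higher and 9 lower (median -0.12). Neil2, a glycosylase for oxidized bases, measured 38.1, 23.9 and 26.2 in the mice, 186, 177 and 188 in the ssNM-Rs and 124, 122 and 174 in the lsNM-Rs (log2 fold change 2.43 ± 0.19, adjusted p = 1.45e-06). Apex1, the endonuclease that cuts the backbone at the site a glycosylase leaves, rose from 417, 505 and 492 in the mice to 1574, 1513 and 1778 in the ssNM-Rs and 1366, 1597 and 1573 in the lsNM-Rs, a log2 fold change of 1.73. The related glycosylases Neil1 and Neil3 were lower (log2 fold changes -0.81 and -0.79), Neil3 with some overlap of spleens, and Ogg1, the glycosylase for 8-oxoguanine, was not called (-0.12, 95% interval -0.45 to 0.22).

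The members that act after the cut were lower or not called, while Fen1, the flap nuclease, and Lig1, the ligase of replicating DNA, both outside the rule, were higher (log2 fold changes 1.62 and 1.81). Parp1, the sensor that binds nicked DNA and builds poly(ADP-ribose), measured 3291, 3561 and 3652 in the mice, 2149.7, 2119.8 and 1917 in the ssNM-Rs and 1879.9, 2137 and 2042 in the lsNM-Rs and did not overlap between the species (log2 fold change -0.78 ± 0.081, adjusted p = 9.79e-06). Parp2, its close relative, had the largest decrease of the pathway, at 903, 883 and 908 in the mice, 531, 483 and 397 in the ssNM-Rs and 486, 597 and 399 in the lsNM-Rs (log2 fold change -0.91 ± 0.14, adjusted p = 1.39e-04). Xrcc1, the scaffold that these polymers recruit, fell by 0.69 on the log2 scale (782 to 842 in the mice and 453 to 572 in the NM-Rs). Its ligase Lig3 was not called (-0.13, interval -0.44 to 0.18). Among the 70 members with an exon length on mm9, Parp1 was the second most abundant per kilobase of annotated exon in mouse spleen, at 910.4 ± 48.7 normalized counts per kilobase (SD, n = 3), after Rad21 at 1013 ± 160.1, and Neil2, at 15.2 ± 3.95, was the lowest of those with reads.

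**Figure D3:**
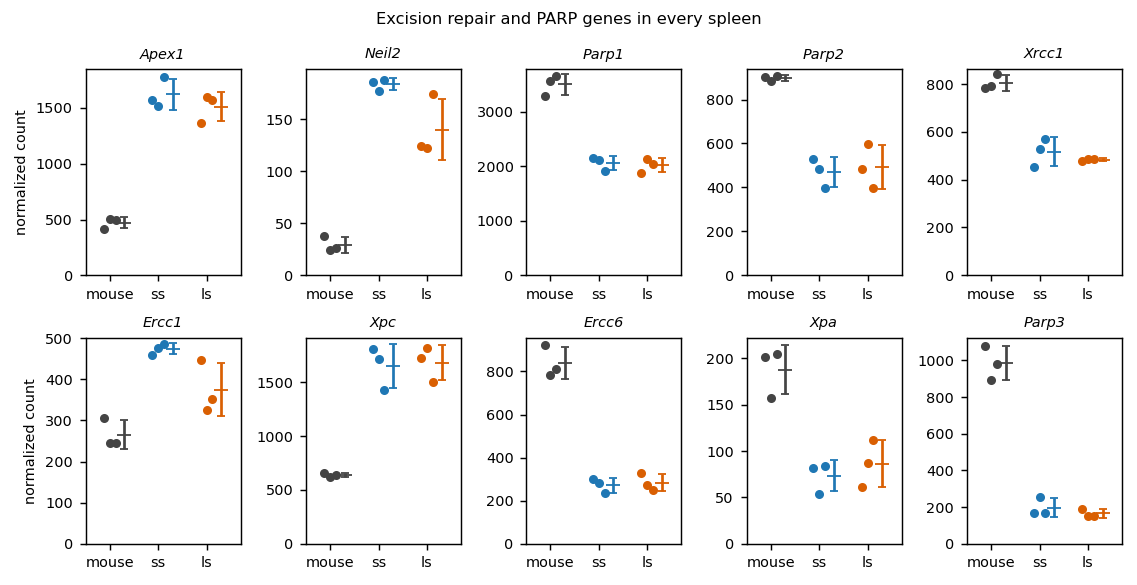
Normalized counts of 10 excision repair and PARP genes in each spleen (points), with group mean ± SD (bar, n = 3 per group). Apex1, Neil2, Ercc1 and Xpc have all NM-R spleens above all mice, and Parp1, Parp2, Xrcc1, Ercc6, Xpa and Parp3 have them below.

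Nucleotide excision repair genes lay on both sides of 0, also among factors that find the lesion. Lesions across the genome are found by XPC and its partners. Xpc went from 656, 618 and 634 in the mice to 1812, 1711 and 1423 in the ssNM-Rs and 1722, 1817 and 1505 in the lsNM-Rs (log2 fold change 1.38). Rad23b, whose product is a partner of XPC, was higher by less (1652 to 1822 in the mice and 1866 to 2343 in the NM-Rs, log2 fold change 0.23, adjusted p = 0.0271). Lesions in transcribed genes are instead recognized through stalled RNA polymerase by the product of Ercc6 (Cockayne syndrome B). Ercc6 had the largest decrease of the pathway, at 922, 785 and 809.6 in the mice, 299, 281 and 234 in the ssNM-Rs and 329, 272 and 251 in the lsNM-Rs, with a log2 fold change of -1.60 ± 0.12 (adjusted p = 1.16e-06) and no overlap. Outside the rule, Ddb2, a sensor of lesions across the genome, was lower (log2 fold change -0.82, adjusted p = 2.19e-05). Uvssa, a factor of repair in transcribed genes, was higher (0.85, adjusted p = 2.14e-05). It was the only higher gene of the 9 in this pathway outside the rule. With Ddb2, 3 of them were lower, among them Xab2 (-0.71, adjusted p = 5.34e-04).

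Past recognition, Xpa, which checks the lesion and holds the complex together, was lower (158 to 204 in the mice and 54.0 to 112 in the NM-Rs, log2 fold change -1.25). The ratio of Xpc to Xpa counts was 3.10 to 3.92 in the mice and 13.4 to 31.7 in the NM-Rs. Of the helicases of TFIIH, Ercc2 was higher (0.46, adjusted p = 5.07e-04) and Ercc3 was not called (0.20, adjusted p = 0.0718). The nuclease that cuts on the 5′ side is a heterodimer, and its subunits moved apart. Ercc1 was higher, with 307, 246 and 244 in the mice, 459, 477 and 487 in the ssNM-Rs and 448, 326 and 351 in the lsNM-Rs (log2 fold change 0.67 ± 0.13, adjusted p = 7.72e-04), and Ercc4 was lower (524 to 549.9 in the mice and 285 to 506 in the NM-Rs, log2 fold change -0.44, adjusted p = 0.0143). Ercc5, the nuclease of the 3′ side, was not called (-0.26, adjusted p = 0.0858).

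Of the 6 mismatch repair genes, 5 were higher in NM-R, among them Msh4, which had no reads in the mice. Apart from Msh4, their products find mispaired bases and call in the enzymes that remove the new strand around them. Msh6, which finds single mispairs, was higher, at 958, 1084 and 1189 in the mice, 1846, 1729.5 and 1739 in the ssNM-Rs and 1871, 2496 and 1964 in the lsNM-Rs (log2 fold change 0.84 ± 0.11, adjusted p = 5.15e-05). Msh3, which finds longer loops, was higher too, with 402, 421 and 409 in the mice, 820.5, 793 and 871 in the ssNM-Rs and 987, 790.5 and 853 in the lsNM-Rs (log2 fold change 1.05 ± 0.09, adjusted p = 2.45e-06). Mlh3, which acts after the mispair is found, rose as well (345 to 390.3 in the mice and 602 to 949.8 in the NM-Rs, log2 fold change 1.04). Msh4, known for its part in meiotic crossing over, had no read in any of the 3 mice and 20.5, 9.01 and 14.5 normalized counts in the ssNM-Rs and 19.8, 9.87 and 13.2 in the lsNM-Rs. With 3 reads per library as the limit in mice, its NM-R mean was at least 4.61-fold higher, and its fitted fold change depends on the pseudocount.

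The PARP proteins outside base excision repair are a mixed family, many of them adding single ADP-ribose units, and several are induced by interferon. Parp3, which acts at double-strand breaks, had the largest decrease, with 1077, 891 and 982 in the mice, 168, 257 and 166 in the ssNM-Rs and 192, 152 and 153 in the lsNM-Rs (log2 fold change -2.45 ± 0.16, adjusted p = 3.59e-07). Another 6 were lower by 0.51 to 0.83 on the log2 scale. The interferon-responsive relatives were not alike: Parp9, Parp10 and Parp14 were lower (log2 fold changes -0.59, -0.51 and -0.69), and Parp12, which binds RNA, had the largest increase, at 697, 592 and 689 in the mice, 1307, 1479 and 1269 in the ssNM-Rs and 1282, 931 and 1159 in the lsNM-Rs (log2 fold change 0.90 ± 0.11, adjusted p = 4.64e-05). Parp4, the PARP of vault particles, rose by 0.33 on the log2 scale (adjusted p = 0.0167) with overlapping spleens.

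Another 4 genes carry a repair prefix and were counted in none of these pathways. Ercc6l, a translocase on DNA bridges at anaphase, was 182, 289 and 305 in the mice, 1497, 1345 and 1146 in the ssNM-Rs and 1314, 1704 and 1333 in the lsNM-Rs (log2 fold change 2.45 ± 0.17, adjusted p = 6.49e-07). Rad21, the cohesin subunit that closes the ring around sister chromatids, was higher (2996 to 4088 in the mice and 9829 to 12650.4 in the NM-Rs, log2 fold change 1.58). Ercc6l2, which acts in end joining, was lower, with 593, 605 and 565 in the mice, 229.7, 215 and 229 in the ssNM-Rs and 305, 293 and 304 in the lsNM-Rs (log2 fold change -1.17 ± 0.086, adjusted p = 7.70e-07). Rad54l2, a chromatin remodeller, was not called (-0.35, adjusted p = 0.0701).

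A further 69 repair genes that the rule does not take were listed in the table, and 39 of these were higher, 18 lower and 12 not called, with a median log2 fold change of 0.58. Their shares of 56.5% and 26.1% stand against 39.7% higher and 38.8% lower of all genes. Counts of such genes by pathway, here and above, are to be read against the same shares. Of the 19 homologous recombination genes among them, 14 were higher and 4 lower, the latter being Rmi1, Eme1, Helq and Bre (log2 fold changes -0.94, -0.67, -0.47 and -0.34). Of the 9 nucleotide excision repair genes 1 was higher and 3 were lower, and of the 10 damage signalling genes 5 were higher and 3 lower. Ube2t, the enzyme that hands ubiquitin to the Fancd2 and Fanci pair, had the largest increase of them, at 73.3, 132 and 148 in the mice, 1080.3, 973 and 894 in the ssNM-Rs and 1007, 996 and 891 in the lsNM-Rs (log2 fold change 3.10 ± 0.20, adjusted p = 2.78e-07). Gen1, a resolvase of crossed-over DNA, followed (129 to 217 in the mice and 1259 to 1620.0 in the NM-Rs, log2 fold change 3.08), and then Apitd1, a histone-fold partner of Fancm (50.2 to 90.2 in the mice and 408 to 696 in the NM-Rs, log2 fold change 2.84). The largest decrease was that of H2ax, the histone marked around breaks, at 829, 1248 and 1631 in the mice, 308, 303 and 415 in the ssNM-Rs and 319, 326 and 331 in the lsNM-Rs (log2 fold change -1.84 ± 0.19, adjusted p = 1.04e-05). Polm, a polymerase of end joining, was 700.0 to 741 in the mice and 167 to 292 in the NM-Rs (-1.64), and Mdm4, a regulator of the damage response, was 2117 to 2756 in the mice and 712 to 1407 in the NM-Rs (-1.03).

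Genes of S phase and mitosis differed between the species along with these genes. All 11 listed genes of the S phase and mitosis list were higher in NM-R, and their summed level was 11397 to 22993 in the mice and 45234 to 63542 in the NM-Rs. The mean log2 fold change of the list was 1.73. All 12 erythroid genes were higher too (summed level 28049 to 82981 in the mice and 196353 to 293143 in the NM-Rs), and all 11 B cell genes (64725 to 65606 against 3417 to 8853) and all 11 T cell genes (14649 to 15827 against 4012 to 8279) were lower. No marker of these 4 lists was at 0 in any spleen. Other marker lists went both ways. Of 9 granulocyte genes 7 were higher and 2 lower (summed level 8233 to 10678.5 in the mice and 26856 to 46219 in the NM-Rs). Of 10 macrophage genes 3 were higher and 6 lower, of 7 liver genes 2 and 1, and of 4 pancreas genes 2 and 1. In bulk RNA, fewer cells of a type and less RNA per cell cannot be told apart. Mouse 1 was the lowest mouse for 11 of 11 S phase genes, 12 of 12 erythroid genes and 9 of 11 T cell genes. Among the B cell genes the count was 4 of 11. Of the repair genes, mouse 1 was lowest for 39 of 75. These included 11 of 13 homologous recombination genes and 23 of the 37 higher repair genes. The share over all genes was not determined, so these counts have no background beside them. Without mouse 1, 35 repair genes were higher and 20 lower.

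Set against the S phase and mitosis list of the same spleen, a quantity chosen after the values were seen, most genes of the table were lower in NM-R. This scale, log2(normalized count + 1) minus the mean of the list, lowers the fold change of every gene alike, and the median of all genes became -1.72. On it 5 repair genes were higher (6.67%), 57 were lower (76%) and 13 were not called, close to the 10.1% and 72.9% of all genes, so these counts show the rescaling. The 5 were, with log2 differences on this scale, Fancd2 (2.34, adjusted p = 8.68e-10), Msh4, Chek1 (1.02, adjusted p = 9.61e-04), Ercc6l (0.72, adjusted p = 0.00883) and Brca1 (0.69, adjusted p = 0.00765). Rad51ap1 (0.32, adjusted p = 0.243), Fanci (0.41, adjusted p = 0.138), Parpbp (0.49, adjusted p = 0.0884) and Rad54l (0.00, adjusted p = 0.994) were not called. Brca2, not called on the count scale, had -1.84 (adjusted p = 7.53e-07), near the median of all genes on this scale. Against Top2a alone, a topoisomerase of dividing cells, the ratio of Fancd2 counts was 0.0784 to 0.0866 in the mice and 0.417 to 0.741 in the NM-Rs. How far the number of dividing cells sets the repair gene levels was not tested.

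**Figure D4:**
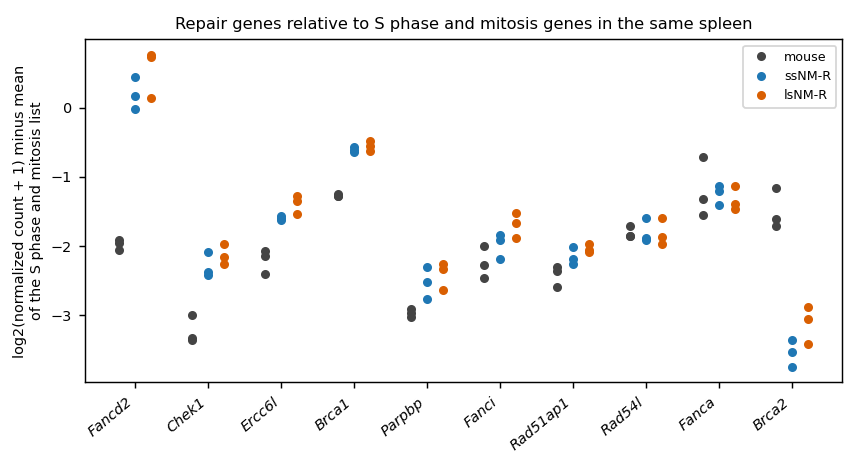
Log2(normalized count + 1) of 10 repair genes minus the mean of the S phase and mitosis list in the same spleen (points, 9 spleens), genes picked after their values were seen. Fancd2 lies clearly above the mice in all 6 NM-R spleens. Brca2 lies below them by about as much as the scale moves the median of all genes (-1.72), and Fanci, Rad54l and Fanca overlap.

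Small and large NM-R spleens were compared for the same genes. None of the 75 repair genes passed in limma, nor did any of the 12946 genes, while 4 repair genes had an unadjusted p under 0.05 where 8.79% of all genes did. DESeq2 on whole reads called 54 genes of the table, none of them a repair gene. All 75 differences were smaller than 0.5 on the log2 scale, and their 95% intervals reached a median of 0.35 to either side. The smallest p belonged to Ercc6l2, for which the lsNM-Rs (305, 293 and 304 normalized counts) lay above the ssNM-Rs (229.7, 215 and 229), a log2 difference of 0.42 (95% interval 0.20 to 0.64, unadjusted p = 0.00188, adjusted p = 0.442). Mre11 came next (log2 difference 0.33, interval 0.11 to 0.55, unadjusted p = 0.00802), and then Atm, whose difference was the largest of the members (log2 difference 0.48, interval 0.14 to 0.82, unadjusted p = 0.0103). Ercc1 was the only one of the 4 with lower values in lsNM-R (log2 difference -0.35, interval -0.68 to -0.02, unadjusted p = 0.0387). For Fancd2 the interval was -0.25 to 0.77, for Brca1 -0.56 to 0.50 and for Chek1 -0.32 to 0.46.

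Spleens of the cohorts did not overlap for 10 repair genes. All lsNM-R spleens lay above all ssNM-R spleens for 8 genes, among them Atm, Atr, Mre11, Msh6, Xrcc6, Parp4 and Ercc6l2 (against 6.84% of all genes), and below for Neil2 and Ercc1 (2 genes, against 6.23%). Each cohort has 3 animals, and the only female is lsNM-R 4.

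**Figure D5:**
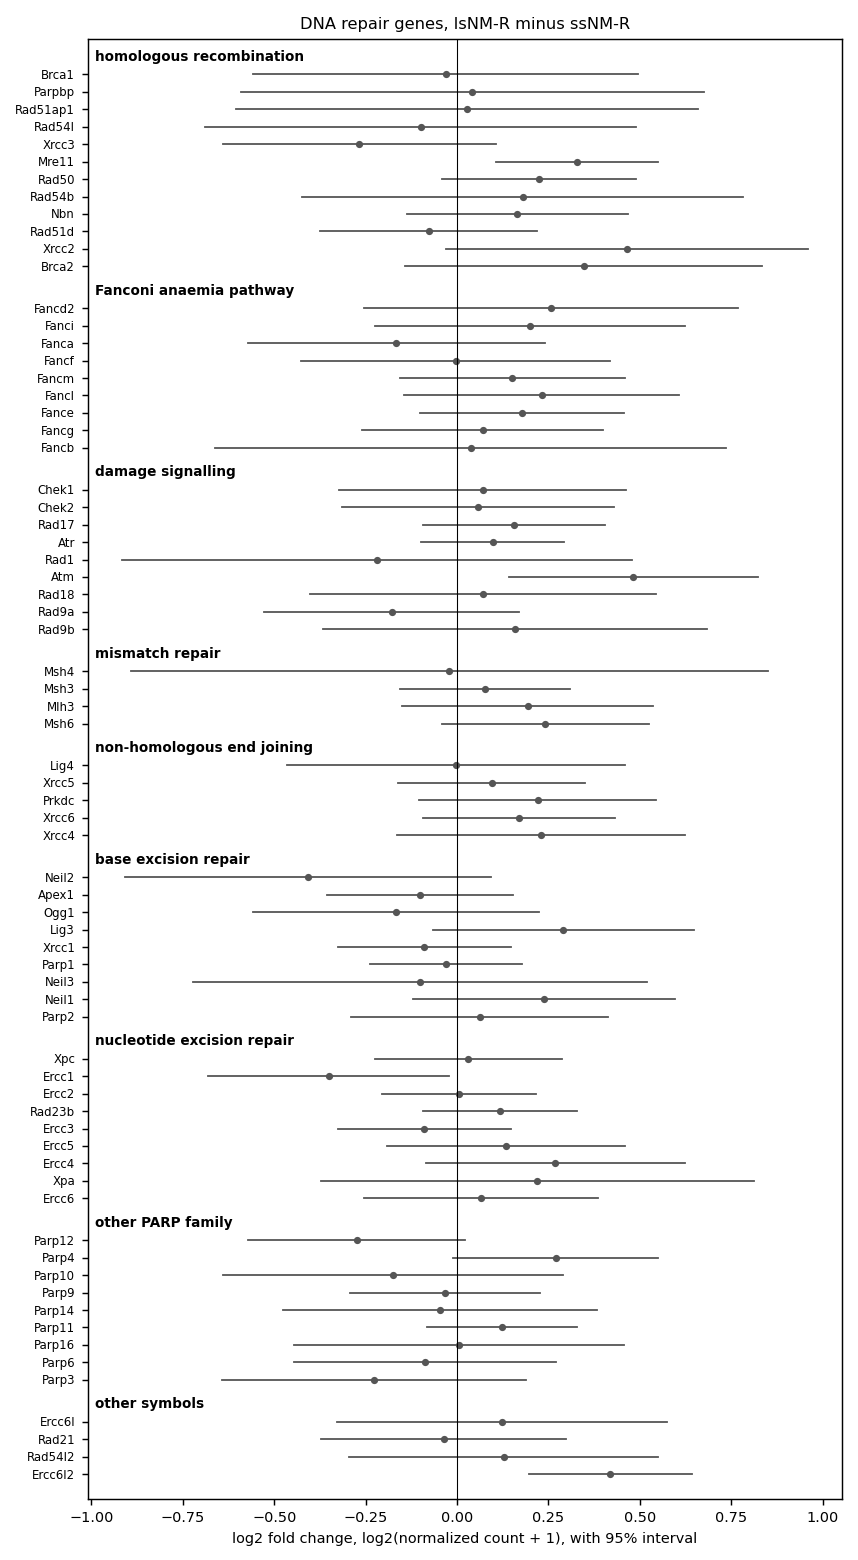
Log2 fold change of 70 of the 75 DNA repair genes, lsNM-R (n = 3) minus ssNM-R (n = 3), grouped by pathway in the order of the species comparison. Points are the limma estimates and lines their 95% intervals, and the points lie between -0.41 (Neil2) and 0.48 (Atm).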

How the data were processed

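Spleen RNA of 3 mice, 3 ssNM-Rs and 3 lsNM-Rs was analysed. According to the methods and the submitters' processing notes, the authors aligned reads with STAR 2.5.3a to mm9 (mice) or to the NM-R genome, counted them per gene with HTSeq 0.10.0, gave NM-R genes mouse names through biomaRt and divided the merged counts by DESeq2 size factors. The deposited signal values are therefore read counts per gene over 1 size factor per library, not divided by gene length. The strand setting of the counting and the handling of reads shared by similar genes are not given in the sources used here, and the labels and the paper name different library kits and sequencers. In all 9 libraries the values were whole multiples of 1 step (tolerance 0.001 reads), which gave back whole reads, 7815326 to 18387599 per library. Precision is limited by 3 animals per group.

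The test used log2(normalized count + 1) in limma 3.58.1 under R 4.3.3, with 1 mean per group over all 9 spleens, trended empirical Bayes moderation, 2-sided tests and Benjamini-Hochberg adjustment over 12946 genes (threshold 0.05). The fit was also run on simulated counts with a small share of genes changed. Most genes differed between the species, so that run does not bear on the species comparison. Groups follow organism and spleen size as labelled. The 4 comparisons were NM-R (mean of both cohorts), ssNM-R and lsNM-R with mouse, and lsNM-R with ssNM-R. Alternatives were pseudocounts of 0.5 and 5, a mean of at least 10, equal upper quartiles or totals, no trend, only the compared groups, edgeR 4.0.16 and DESeq2 1.42.0 on whole reads, a replicate block, leaving out each spleen, and, chosen after seeing the data, leaving out mouse 1 and ssNM-R 6 together. The repair genes, pathways and marker lists were chosen with earlier results of these data known. Genes given in every spleen were those with the highest and lowest called fold change of each pathway (group mean of at least 50), Atm, Atr, Chek1, Chek2, Prkdc, Brca1, Brca2, Xrcc5, Xrcc6, Parp1, Msh6, Fancd2, Fanci, Ercc1, and the 3 smallest p between cohorts. Of the 75 genes, 5 enter every count and median but are not reported here by name. Xpc, Apex1 and Msh4 were added after their values were seen. So were, outside the rule, Hus1, Fen1, Lig1, Dclre1c, Ddb2, Uvssa, Xab2, Rmi1, Eme1, Helq and Bre. For other repair genes the 3 highest and 3 lowest were named. Promoters and exon lengths came from mm9 with GENCODE vM1, in which 70 of the 75 genes were found by symbol.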

Additional observations from a re-analysis of the deposited data

Results flagged for a closer look

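Each of the 75 repair genes was tested for a single spleen standing apart among the 6 NM-R spleens (Dixon's ratio of gap to range, past its 95% critical value), which chance alone is expected to flag in about 1 of 20 genes, and 3 genes were flagged. Rad18 was 234 normalized counts in lsNM-R 4 and 133 to 167 in the other 5 spleens (gap over range 0.658). Xrcc3 was 149 in lsNM-R 5, where the others lay between 210.1 and 237 (0.699). Msh6 was 2496 in lsNM-R 4 and 1729.5 to 1964 in the others (0.694). The animal lsNM-R 4 is the only female, and the part of sex in these values was not tested.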

How the results depend on the processing

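Of 1111 values recomputed under the alternatives for 58 results, 1101 kept their side of the threshold or moved by less than the spread, and no called result changed direction. Of the values, 7 had the opposite sign, for a median near 0 and a gene that was not called: the damage signalling median (0.02) was below 0 in 6 of them, as far as -0.14, and Brca2 was 0.015 without mouse 3. Leaving the replicate block aside, the count of higher repair genes lay between 35 and 40 and that of lower ones between 19 and 23. Making upper quartiles equal gave the highest count (40 higher, 20 lower) and moved the median of all genes from 0.01 to 0.10. Under it the base excision repair median was -0.59 and the nucleotide excision repair median 0.31. The base excision repair median was -0.58 under the replicate block and lay between -0.72 and -0.54 with single spleens left out, the latter without mouse 3. Leaving out single spleens gave 35 to 38 higher and 19 to 22 lower repair genes. Atr did not pass without mouse 3 (adjusted p = 0.0655). Leaving out mouse 1 and ssNM-R 6 together gave 35 higher and 20 lower. The summed level of the liver list was 3280 normalized counts in ssNM-R 6 and 383 to 1170 in the other NM-Rs. What that level reflects was not tested. DESeq2 called 54 genes between the cohorts, none of them a repair gene. The other alternatives called 0, leaving aside the replicate block, which cannot compare the cohorts with 1 lsNM-R. The cause of these shifts was not tested.

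Labels give mice and NM-Rs some of the same numbers, although these are animals of different species, and the main fit did not pair them. Deviations of same-numbered spleens from their group means were close to uncorrelated (-0.00453, 0.000765 and 0.0101). Whether same-numbered spleens share a batch was not tested. The replicate block takes up lsNM-R 4, lsNM-R 5 and ssNM-R 6 completely, because no other spleen carries their numbers. In that fit the lsNM-R cohort rests on lsNM-R 1 alone, so it is no check over all spleens. Its damage signalling median was -0.14 and its log2 fold change of Atr was 0.26. Genes with few reads, such as Msh4 and Rad9b, are limited by depth.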
